A study of Mus musculus with 6 samples.

Results

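The exon junction complex (EJC) and the core of nonsense-mediated mRNA decay (NMD) were described gene by gene in NIH/3T3 (a mouse fibroblast cell line that grows indefinitely) after depletion of the glycolytic enzyme ALDOA. The members were taken by gene symbol from the table of all genes and comprise 10 of its 18001 genes. They are the EJC genes Rbm8a, Magoh, Magohb, Eif4a3 and Casc3 and the NMD genes Upf1, Upf2, Upf3a, Upf3b and Smg1. The siAldoa group received an Aldoa-targeting siRNA pool and the siCtrl group received non-targeting siRNAs, and both were harvested 48 h later, with 3 libraries of poly(A) RNA per group. Both groups were of the same cell line and were grown in the same medium. The study itself reported a slight decrease of Rbm8a in the Aldoa-depleted cells. It came to the EJC through Rbm8a, a gene it followed up from a reporter screen. Eif4a3 was also a significant hit of that screen.

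The EJC is a protein assembly that the spliceosome leaves on an mRNA just upstream of each joined exon boundary. Its core is the RNA helicase eIF4A3, locked on the RNA by the RBM8A-MAGOH heterodimer and joined by CASC3. When a ribosome terminates upstream of an EJC that is still in place, UPF3 proteins and UPF2 link the complex to the helicase UPF1. The kinase SMG1 then phosphorylates UPF1, and the mRNA is degraded.

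Expression was measured in CPM, the reads of a gene scaled to the size of the library. The 6 libraries held between 3692341 and 3771129 reads in genes, and 3 reads corresponded to 0.79 to 0.82 CPM. Aldoa itself was at 522, 536 and 545 CPM in the siCtrl libraries and at 62.9, 69.2 and 72.01 CPM in the siAldoa libraries. Its log2 fold change was -2.96, with groups that do not overlap. All 8 fibroblast markers examined were in the table. They summed to 13075 to 13612 CPM in siCtrl and 10803 to 11474 CPM in siAldoa. By limma 4 of them (Col1a1, Col1a2, Vim and S100a4) were lower and 3 (Fn1, Thy1 and Pdgfrb) higher. This was 87.5% of the list called, against 20.4% of all genes (10.0% lower and 10.4% higher). Of 10 markers of other cell types, Epcam, Krt5, Cd3e, Myh6 and Tubb3 were not listed, and the other 5 summed to 12.4 to 14.0 CPM in siCtrl and 6.28 to 7.29 CPM in siAldoa, with 1 of the 5 (Cdh1) lower by limma. The part of either marker list in the results was not tested. The reads of replicates 1 and 2 of a group differed by a chi-square per degree of freedom of 1.11 to 1.12, and those of pairs with replicate 3 by 2.07 to 3.24. A value near 1 is what the sampling of reads alone gives. All 3 were kept as separate replicates. Whether replicates 1 and 2 are as independent as the SDs and p-values assume was not tested.

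All 10 members were expressed in every library, with at least 61 reads in each. Rbm8a and Eif4a3 were lower and Smg1 was higher in siAldoa at an adjusted p-value under 0.05, so that 3 of 10 members were called. Of all genes, 20.4% were called by the same limma fit, 10.0% lower and 10.4% higher. Among the 8091 genes with a mean level at least that of the lowest member, 36.9% were called. The share of members called therefore lay between both background shares, and the count is no result about the members as a group. Without the mean-variance trend limma called 0 members (3 lower and 1 higher at an unadjusted p-value under 0.05), whereas edgeR called 4 and DESeq2 3. The groups did not overlap for 3 members that were lower (Rbm8a, Eif4a3 and Magohb) and for 1 that was higher (Smg1), against 17.1% lower and 16.7% higher of all genes. The median log2 fold change of the members was -0.04, and that of all genes was -0.0023. CPM is relative to the library, so that less RNA of a gene per cell and fewer cells expressing it cannot be told apart.

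**Figure D1:**
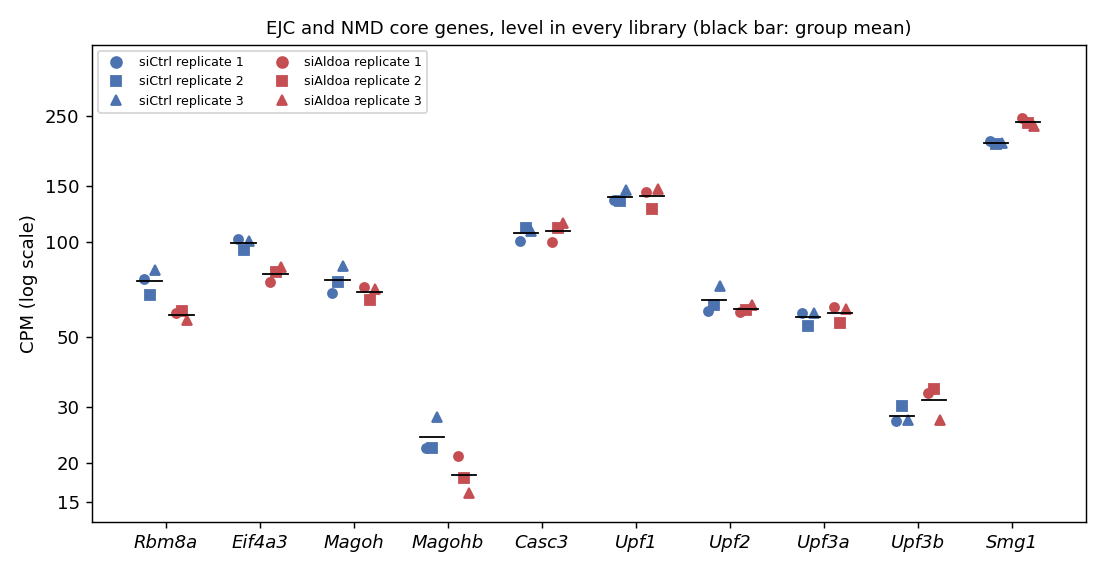
CPM of the 10 genes on a log axis in each of the 3 siCtrl (blue) and 3 siAldoa (red) libraries, with the mean of each group as a black bar. The siAldoa points lie below all siCtrl points for Rbm8a, Eif4a3 and Magohb and above them for Smg1, and the groups overlap for the other 6 genes.

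Rbm8a encodes the RNA-binding partner of MAGOH, also known as Y14. The gene (ENSMUSG00000038374) lies on the plus strand of chromosome 3 of GRCm38 (mm10) from 96629933 to 96633791 and is the shortest of the 10, with 5 introns. Rbm8a was at 76.4, 67.8 and 81.2 CPM in siCtrl replicates 1, 2 and 3 and at 59.6, 60.1 and 56.3 CPM in siAldoa replicates 1, 2 and 3. Every siAldoa library was below every siCtrl library, and the siAldoa libraries were the more closely spaced group. The siCtrl mean of 75.2 ± 6.78 CPM compared with a siAldoa mean of 58.7 ± 2.09 CPM (SD, n = 3 each), or 78.1% of the control. On the log2(CPM + 1) scale the fold change was -0.35 with a standard error of 0.076 (limma adjusted p = 0.0015). These values rest on 215 to 307 reads per library. The call was lost when replicate 1 or replicate 3 was left out of both groups (limma adjusted p = 0.096 and 0.139) but with no single library left out. Of all 50-base windows of its main transcript, 7.79% also occur in the transcript of Rbm8a2, an intronless relative of Rbm8a that was not in the table.

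MAGOH is the other subunit of the heterodimer, and the mouse genome encodes it from the paralogs Magoh and Magohb. Magoh (ENSMUSG00000028609) lies on the plus strand of chromosome 4 from 107879755 to 107887424, and Magohb (ENSMUSG00000030188) on the minus strand of chromosome 6 from 131284388 to 131293244, each with 4 introns. Their coding sequences are 81.3% identical over 438 aligned bases, and the longest identical run is 17 bases. The coding stretch of 60 bases in which they are most alike shows how far apart their reads are, with the 7 bases that differ in capitals. Positions are counted from the start codon, 98 to 157 in Magoh and 104 to 163 in Magohb (GENCODE transcripts).
Magoh: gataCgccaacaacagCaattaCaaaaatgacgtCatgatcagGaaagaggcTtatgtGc
Magohb: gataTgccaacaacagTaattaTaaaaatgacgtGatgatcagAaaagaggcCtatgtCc
No 50-base window of their main transcripts is shared between them or with another gene. Of the annotated Magohb transcripts 3 of 7 have the NMD biotype, as has 1 of 10 of Smg1 and 0 of the other members, and CPM per gene does not separate them.

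Magoh was at 68.7, 74.7 and 83.6 CPM in the siCtrl libraries and at 72.1, 65.5 and 71.0 CPM in the siAldoa libraries. The groups overlapped, since siAldoa replicates 1 and 3 lay above siCtrl replicate 1. The log2 fold change of -0.12 (95% interval -0.27 to 0.04) did not pass the limma test at an adjusted p of 0.316, and it was -0.045 without siCtrl replicate 3 and -0.18 without siCtrl replicate 1. Magohb was at 22.2, 22.2 and 27.8 CPM in siCtrl and at 21.0, 17.9 and 16.0 CPM in siAldoa. All siAldoa libraries were below all siCtrl libraries, by little in siAldoa replicate 1. With 61 to 105 reads per library it was the least expressed member, and its log2 fold change was -0.38 (95% interval -0.66 to -0.09, limma adjusted p = 0.053). Magohb passed the threshold in edgeR's quasi-likelihood test on recovered reads (adjusted p = 0.043), with the filter on low values in limma (adjusted p = 0.033) and in 3 other alternatives of 19. An exon of the annotated Magohb gene overlaps the processed pseudogene Gm44958 on the same strand over 520 bases.

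The relation between the partners was tested within libraries as the log2 ratio of their levels on the log2(CPM + 1) scale. These ratios are not corrected for exon length, so they do not compare the abundance of the transcripts. With that correction, Rbm8a was at 26.2 and Magoh at 109 CPM per kb of exon in siCtrl. Rbm8a and Magoh were at a mean log2 ratio of -0.01 ± 0.15 (SD, n = 3) in siCtrl and -0.24 ± 0.11 (SD, n = 3) in siAldoa. The difference of -0.23 had an exact permutation p of 0.2 (two-sided, adjusted p = 0.3 over 3 pairs). Without length correction, Magoh exceeded Magohb 3.07-fold in siCtrl and 3.67-fold in siAldoa, a difference in log2 ratio of 0.26 (exact permutation p = 0.1, adjusted p = 0.3). The exact test of 3 libraries against 3 cannot give a p-value below 0.1, so no pair could pass the threshold. With a replicate number left out of both groups, the difference ranged from -0.35 to -0.14 for Rbm8a and Magoh and from 0.12 (without replicate 3) to 0.33 for Magoh and Magohb.

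Eif4a3 encodes the DEAD-box helicase that holds the EJC on the RNA. The gene (ENSMUSG00000025580) lies on the minus strand of chromosome 11 from 119288363 to 119300089 and has 11 introns. Eif4a3 was at 101.9, 93.8 and 100.5 CPM in siCtrl and at 74.5, 79.9 and 83.0 CPM in siAldoa. The groups were separate, and the gap between them was wider than the spread within either. The siCtrl mean was 98.8 ± 4.32 CPM and the siAldoa mean 79.1 ± 4.31 CPM (SD, n = 3 each), 80.1% of the control. On the log2 scale Eif4a3 fell by 0.32 with a standard error of 0.065 (limma adjusted p = 0.00087). The call was lost without replicate 1 of both groups (limma adjusted p = 0.079) and without replicate 3 of both groups (limma adjusted p = 0.070).

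Reads of Eif4a3 can be confused with those of 3 copies on chromosome 6, which were named after their values were seen. Gm5576 (78215878 to 78217113, plus strand) is annotated as a processed pseudogene, whereas Gm5580 (116551141 to 116552502, plus strand) and Gm8994 (136327539 to 136329983, plus strand) are annotated as protein-coding. They are 96.8%, 96.8% and 96.2% identical to the 1233 coding bases of Eif4a3, with identical runs of up to 119, 151 and 119 bases. Of the 50-base windows of the main Eif4a3 transcript, 24.4% occur in at least one copy. The first 60 coding bases are printed as the first stretch aligned without gaps in which every copy differs from Eif4a3. They hold bases that tell the copies apart and a run that does not. Capitals mark bases that differ from Eif4a3.
Eif4a3: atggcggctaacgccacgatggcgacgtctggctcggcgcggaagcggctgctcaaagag
Gm5576: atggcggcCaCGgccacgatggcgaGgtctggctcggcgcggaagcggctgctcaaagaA
Gm5580: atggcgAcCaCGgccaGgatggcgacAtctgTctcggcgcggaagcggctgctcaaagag
Gm8994: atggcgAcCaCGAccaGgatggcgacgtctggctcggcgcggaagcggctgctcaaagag
The stretch differs from Eif4a3 at 5 bases in Gm5576, 7 in Gm5580 and 6 in Gm8994.

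The table lists values for each copy. Gm5576 was at 46.3, 46.2 and 47.9 CPM in siCtrl and at 39.4, 30.7 and 34.8 CPM in siAldoa, a log2 fold change of -0.42 (limma adjusted p = 0.0024). Gm5580 was at 53.7, 52.0 and 52.9 CPM in siCtrl and at 41.8, 40.4 and 45.8 CPM in siAldoa, a log2 fold change of -0.30 (limma adjusted p = 0.0092). Gm8994 was at 20.5, 21.1 and 19.0 CPM in siCtrl and at 14.8, 16.6 and 14.9 CPM in siAldoa, a log2 fold change of -0.37 that did not pass the limma test (adjusted p = 0.054). In all 3 copies the siAldoa libraries lay below the siCtrl libraries, as they did in Eif4a3. The sum of Eif4a3 and its copies was 222, 213 and 220.4 CPM in siCtrl and 171, 168 and 179 CPM in siAldoa, a mean of 78.8% of the control. How many of the reads given to each of the 4 genes came from it was not tested, and the summed level is the value that does not depend on that division among them.

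**Figure D2:**
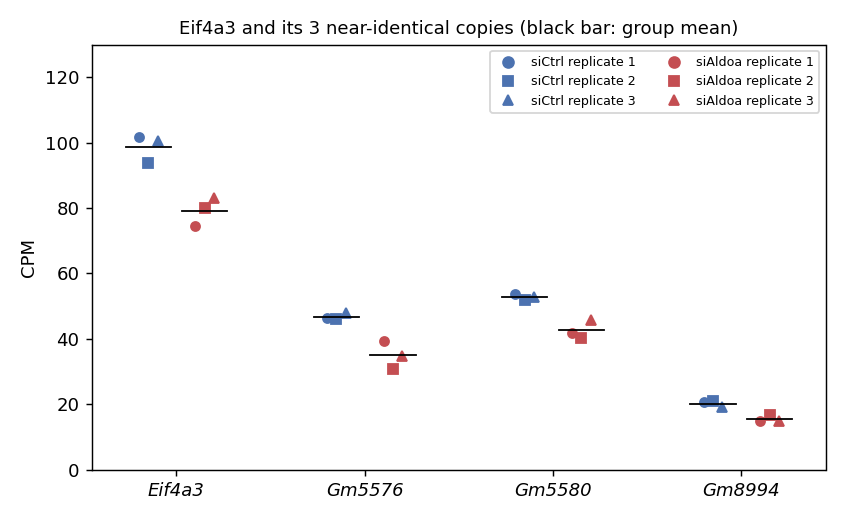
CPM of Eif4a3 and of Gm5576, Gm5580 and Gm8994 in each of the 3 siCtrl (blue) and 3 siAldoa (red) libraries on an axis that starts at 0, with group means as black bars. In all 4 genes every siAldoa point is below every siCtrl point, and the copies are listed at 20.2 to 52.9 CPM on average in siCtrl against 98.8 CPM for Eif4a3.

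The other helicases of the family were included as relatives. Eif4a1, the translation initiation helicase, fell from a mean of 657 ± 9.07 to 541 ± 15.9 CPM (SD, n = 3), with a log2 fold change of -0.28 (limma adjusted p = 2.2e-06). Eif4a2, its close paralog, was at 402 ± 18.5 and 387 ± 19.9 CPM (SD, n = 3), and its log2 fold change of -0.06 (95% interval -0.15 to 0.03) did not pass the test. Of the 50-base windows of Eif4a1, 65.3% also occur in transcripts of other genes, and of Eif4a2 15.6%.

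Casc3, which encodes the EJC component that associates with the assembled core, lies on the plus strand of chromosome 11 from 98804905 to 98833814 (ENSMUSG00000078676). Casc3 was at 100.2, 110.5 and 108.2 CPM in siCtrl and at 99.9, 110.4 and 114.4 CPM in siAldoa. The groups overlapped over most of their range, and the 95% interval of the log2 fold change ran from -0.11 to 0.16 around 0.02 (limma adjusted p = 0.847). The antisense gene Gm12359, not in the table, overlaps exons of Casc3 over 494 bases. The libraries were prepared with a directional kit, but whether the counting used strand is not given. Whether reads of Gm12359 were counted in Casc3 was not tested.

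**Figure D3:**
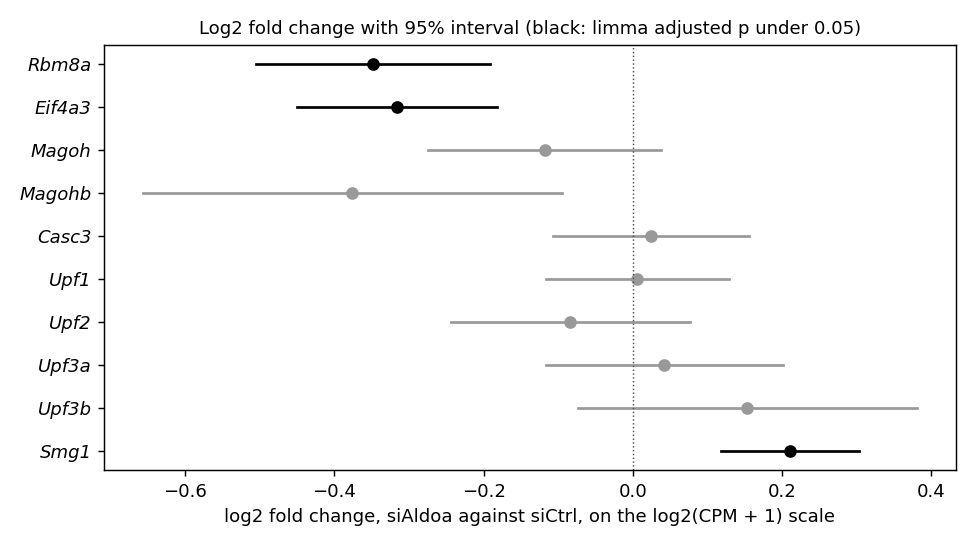
Log2 fold change of siAldoa against siCtrl on the log2(CPM + 1) scale for the 10 genes, with 95% intervals from limma, and black where the adjusted p-value is under 0.05. Rbm8a (-0.35), Eif4a3 (-0.32) and Smg1 (0.21) are black, the interval of Magohb also excludes 0 before adjustment, and the other 6 intervals include 0.

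Of the 5 NMD genes among the members, the kinase gene Smg1 was the only one called by limma. Smg1 (ENSMUSG00000030655) is the longest of the 10 genes, with 62 introns on the minus strand of chromosome 7 from 118131308 to 118243670. It was at 208, 204 and 205 CPM in siCtrl and at 246, 238 and 231 CPM in siAldoa. All siAldoa libraries were above all siCtrl libraries, and the siCtrl libraries were closely spaced. The mean rose from 206 ± 2.35 to 238 ± 7.36 CPM (SD, n = 3), to 115.9% of the control. This was 0.21 on the log2 scale with a standard error of 0.045 (limma adjusted p = 0.0012). With 746 to 912 reads per library Smg1 had the highest counts among the members. The call was lost without replicate 1 or replicate 2 of both groups (limma adjusted p = 0.056 and 0.066).

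Upf1, the central helicase of the pathway, was at 135, 134 and 145 CPM in siCtrl and at 144, 127 and 146 CPM in siAldoa. Its gene (ENSMUSG00000058301) lies on the minus strand of chromosome 8 from 70331525 to 70353278. The siAldoa libraries spanned the whole siCtrl range, and the log2 fold change was 0.006 (95% interval -0.12 to 0.13, limma adjusted p = 0.970). Upf2, the adaptor between UPF1 and UPF3 proteins (ENSMUSG00000043241, chromosome 2, 5951469 to 6056703, plus strand), was at 60.3, 62.9 and 72.5 CPM in siCtrl and at 59.9, 60.9 and 63.1 CPM in siAldoa. The higher siCtrl mean came mainly from siCtrl replicate 3. The log2 fold change of Upf2 was -0.08 (95% interval -0.24 to 0.08, limma adjusted p = 0.514), and -0.0063 without that library.

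UPF3A and UPF3B are the paralogs that contact the EJC. Upf3a (ENSMUSG00000038398, chromosome 8, 13785615 to 13799193, plus strand) was at 59.4, 54.2 and 59.5 CPM in siCtrl and at 62.1, 55.3 and 61.0 CPM in siAldoa. Upf3b (ENSMUSG00000036572, chromosome X, 37091678 to 37110322, minus strand) was at 27.1, 30.1 and 27.3 CPM in siCtrl and at 33.2, 34.2 and 27.2 CPM in siAldoa. In both genes the groups overlapped, and for Upf3b siAldoa replicate 3 lay among the siCtrl libraries while siAldoa replicates 1 and 2 lay above them. The log2 fold changes were 0.04 for Upf3a (95% interval -0.12 to 0.20) and 0.15 for Upf3b (95% interval -0.07 to 0.38), and neither passed the limma test (adjusted p = 0.774 and 0.378). The value of Upf3b was 0.25 without siAldoa replicate 3 and 0.093 without siAldoa replicate 2. Without length correction, Upf3a exceeded Upf3b 2.01-fold in siCtrl and 1.86-fold in siAldoa. The difference in log2 ratio of -0.11 had an exact permutation p of 0.7 (adjusted p = 0.7 over 3 pairs). This difference ranged from -0.19 to -0.057 when a replicate number was left out. Their coding sequences are 65.3% identical over 1197 aligned bases, with no identical run longer than 15 bases. In the main transcript of Upf3a 2.54% of 50-base windows belong to a sequence that recurs in other transcripts, and in Upf2 and Upf3b none are shared.

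Levels were compared between genes per kb of exon, since longer transcripts collect more reads. In siCtrl, Magoh was the highest at 109 ± 10.8 CPM per kb (SD, n = 3), followed by Eif4a3 at 65.4 ± 2.86 CPM per kb and Upf1 at 29.9 ± 1.31 CPM per kb. Upf3a (28.1 ± 1.49 CPM per kb), Casc3 (26.8 ± 1.36 CPM per kb) and Rbm8a (26.2 ± 2.36 CPM per kb) came next, and each of these overlapped its neighbour in the order. Magohb stood apart below them at 18.7 ± 2.52 CPM per kb. Smg1 (13.2 ± 0.151 CPM per kb), Upf2 (12.6 ± 1.24 CPM per kb) and Upf3b (12.01 ± 0.717 CPM per kb) formed the low end, where neighbours overlapped again. Smg1, first by CPM, was eighth by level per kb. The exon length used decides part of this order. With the length of the main transcript alone, 767 in place of 1287 bases, Magohb was at 31.3 CPM per kb in siCtrl and moved from rank 7 to rank 3, and the MAGOH paralogs and Eif4a3 then had the highest means.

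**Figure D4:**
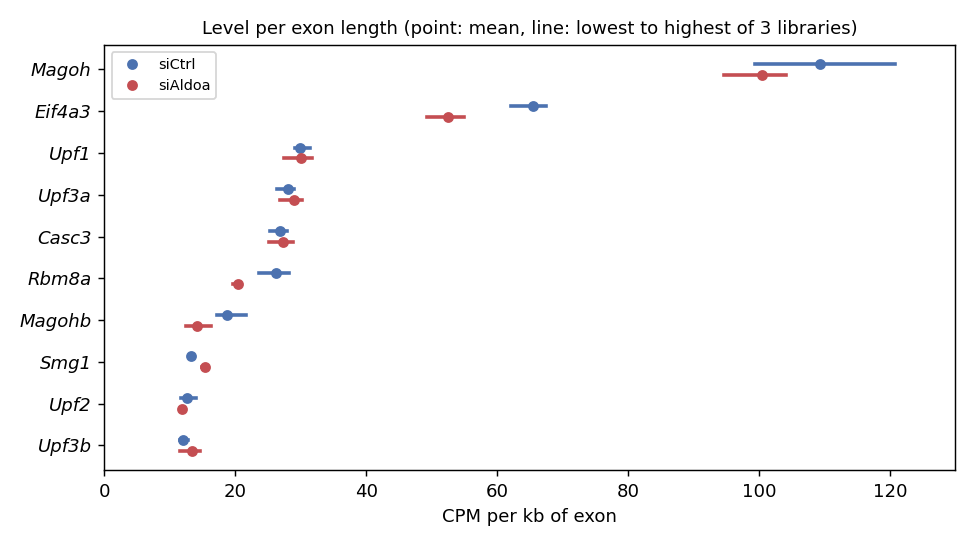
Level in CPM per kb of exon for the 10 genes, ordered by the siCtrl mean, with points for group means and lines from the lowest to the highest of 3 libraries (blue, siCtrl; red, siAldoa). Magoh (109 CPM per kb) and Eif4a3 (65.4 CPM per kb) lie above the other 8 genes, which lie between 12.01 and 29.9 CPM per kb in siCtrl.

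The pattern of each gene over the 6 libraries was compared by Pearson's r of log2(CPM + 1), as a description over libraries that share the group difference. Rbm8a and Eif4a3 were most like each other (r = 0.90), and Magohb was most like Rbm8a (r = 0.89). Magoh and Upf2 were most like each other (r = 0.88), as were Upf1 and Upf3a (r = 0.80) and Upf3b and Smg1 (r = 0.66). Casc3 had no close partner, with r = 0.35 to Upf2. Among 10059 genes with a mean of at least 10 CPM, those most like Rbm8a were Vma21 (r = 0.995), Adi1 (r = 0.994), Hdac2 (r = 0.993), Zfyve21 (r = 0.992) and Oaf (r = 0.991), with log2 fold changes of -0.35, -0.34, -0.21, -0.28 and -0.63.

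The wider pathway was described by 4 lists of genes, none of which was tested as a set, and lower or higher here means called by limma. Of 10 peripheral and assembly proteins of the EJC, 2 were lower and 1 was higher, with a median log2 fold change of -0.09. The called share of 30% lay between 20.4% of all genes and 36.9% of those with a mean level at least that of the lowest member. Nothing was read from it. Rnps1, a splicing activator bound to the EJC, was at 94.2, 87.5 and 92.3 CPM in siCtrl and at 84.2, 78.0 and 70.4 CPM in siAldoa (log2 fold change -0.24, limma adjusted p = 0.017). Of its windows, 30.6% occur also in Gm9825. The export adaptor gene Alyref was at 156, 136 and 159.5 CPM in siCtrl and at 123, 112 and 135 CPM in siAldoa (log2 fold change -0.28, limma adjusted p = 0.0034), with the siAldoa maximum just below the siCtrl minimum. Ddx39b, the export helicase, rose from a mean of 330.3 ± 18.1 to 367 ± 8.31 CPM (SD, n = 3; log2 fold change 0.15, limma adjusted p = 0.012). Shared windows made up 1.41% of Alyref and 2.54% of Ddx39b. Acin1, Sap18, Pnn, Srrm1, Nxf1, Pym1 and Cwc22 did not pass the test.

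Of 8 SMG and associated NMD factors, 1 was lower and 1 was higher, and the median log2 fold change was 0.07. The called share was 25%, again between 20.4% and 36.9%, although Dhx34 lies below the level that the 36.9% refers to. Nbas, which takes part in NMD and in Golgi-to-ER transport, was at 109.6, 102 and 104 CPM in siCtrl and at 167, 168 and 169 CPM in siAldoa. It had the largest difference among all named pathway genes (log2 fold change 0.67, limma adjusted p = 2.0e-09), and no window of it is shared with another gene. Ruvbl2, an AAA+ ATPase with many complexes, fell from a mean of 113 ± 4.57 to 95.9 ± 3.72 CPM (SD, n = 3; log2 fold change -0.23, limma adjusted p = 0.0058). Windows shared with other genes made up 14.6% of Ruvbl2. The endonuclease gene Smg6 (log2 fold change 0.15, 95% interval 0.01 to 0.29) and the adaptor gene Smg5 (log2 fold change 0.02, 95% interval -0.08 to 0.12) were not called.

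Of 10 termination, cap-binding and decay factors, 2 were lower and 1 was higher, with a median log2 fold change of -0.02. The called share of 30% lay within the same background range of 20.4% to 36.9%. Gspt1, the release factor eRF3a, fell from a mean of 200.2 ± 7.30 to 178 ± 5.19 CPM (SD, n = 3; log2 fold change -0.16, limma adjusted p = 0.017). Dcp2, the decapping enzyme, was at 91.8, 105 and 107 CPM in siCtrl and at 86.6, 89.8 and 83.0 CPM in siAldoa (log2 fold change -0.22, limma adjusted p = 0.020). Xrn1, the 5′ to 3′ exonuclease that follows decapping, was at 32.9, 29.0 and 33.6 CPM in siCtrl and at 43.7, 36.1 and 39.5 CPM in siAldoa (log2 fold change 0.31, limma adjusted p = 0.028). Shared windows made up 5.37% of Gspt1, 0.444% of Dcp2 and 4.33% of Xrn1.

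Transcripts known to be degraded by NMD accumulate when the pathway is blocked. Of 16 such transcripts 15 were in the table, and 5 of them were lower and 0 higher by limma, with a median log2 fold change of -0.12. By the same fit 10.0% of all genes were lower and 10.4% higher. Among genes with a mean level at least that of the lowest member, 36.9% were called, a share not split by direction. At an unadjusted p-value under 0.05 limma gave 7 lower and 3 higher. edgeR's quasi-likelihood test and DESeq2 also called 5 lower and 0 higher. limma called 2 lower without the mean-variance trend, 3 without replicate 1 and 3 without replicate 3 of both groups. Without siCtrl replicate 3 alone it called 5 lower and 1 higher. In 9 of the 15 the log2 fold change was below 0. Ifrd1 was at 237, 230.3 and 237 CPM in siCtrl and at 159, 159.6 and 157 CPM in siAldoa (log2 fold change -0.56, limma adjusted p = 3.0e-09). Ddit3, a stress-induced transcription factor gene, was at 66.3, 63.5 and 65.1 CPM in siCtrl and at 50.2, 46.2 and 50.5 CPM in siAldoa (log2 fold change -0.40, limma adjusted p = 0.00035). The snoRNA host genes Snhg1 and Gas5 fell from 84.5 ± 0.913 to 68.6 ± 7.47 CPM and from 105 ± 4.91 to 87.9 ± 3.36 CPM (SD, n = 3), log2 fold changes of -0.30 and -0.25 (limma adjusted p = 0.0043 and 0.0042). Windows shared with other genes made up 8.26% of Ifrd1, 8.92% of Ddit3, 8.29% of Snhg1 and 5.62% of Gas5.

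The remaining transcript of the 5, Atf4, was named after its value was seen and fell from 571 ± 4.64 to 484 ± 6.05 CPM (SD, n = 3; log2 fold change -0.24, limma adjusted p = 1.5e-05). ATF4 and its targets are also controlled by the integrated stress response, and Ddit3 is a target of ATF4. Neither NMD activity nor the stress response was measured, and the cause of the lower values was not tested. The other snoRNA hosts were not called and differed in sign. Snhg15 had a log2 fold change of -0.12 and Snhg8 one of 0.10. Snhg12 had a log2 fold change of 0.21 (95% interval 0.04 to 0.38, limma adjusted p = 0.082) and Zfas1 one of 0.18 (95% interval 0.02 to 0.33, limma adjusted p = 0.103). The stress gene Gadd45a was at 0.34 (95% interval 0.05 to 0.63, limma adjusted p = 0.099). In the other direction, Map3k14 was at -0.30 (95% interval -0.53 to -0.07, limma adjusted p = 0.057). Gadd45b was at -0.17 (95% interval -0.32 to -0.02, limma adjusted p = 0.106). The share of called genes was 33.3% in this list and 30% in the members, against 20.4% of all genes. It was 36.9% among genes with a mean level at least that of the lowest member. Some genes of this list, such as Upp1 and Nat9, lie below that level.

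**Figure D5:**
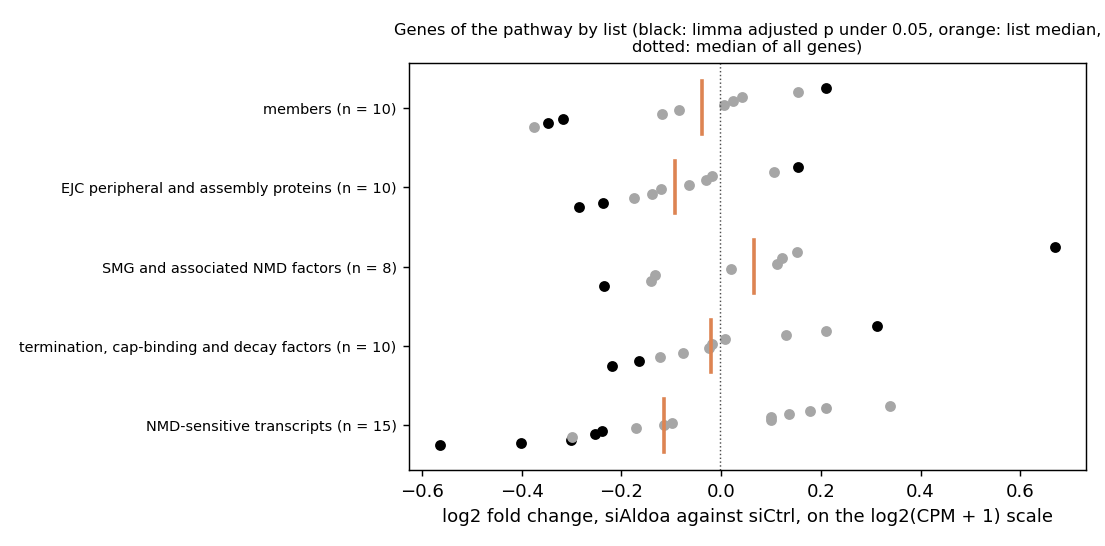
Log2 fold change of siAldoa against siCtrl on the log2(CPM + 1) scale for the 10 members and the 4 lists, 1 point per gene, black where the limma adjusted p-value is under 0.05, with list medians in orange and the median of all genes dotted. The called NMD-sensitive transcripts lie between -0.56 and -0.24, and Nbas at 0.67 is the farthest point to the right.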

How the data were processed

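Poly(A) RNA of NIH/3T3 cells was sequenced in 3 siCtrl and 3 siAldoa libraries, and the paper calls the replicates biological. Spike-in RNA was added at lysis for replicate 1 and later, to extracted RNA, for replicates 2 and 3. The authors aligned reads to mm10 with Bowtie2 (version 2.2.7), drew equal read numbers at random from each sample, counted reads by gene, filtered genes with fewer than 12 reads and deposited CPM scaled to an effective library size. The table held 1834 genes with fewer than 12 recovered reads in all. The library kit was directional. Read length, the use of strand in the counting and the treatment of multi-mapping reads are not given in the sources used here. A deposited edgeR comparison with fold changes and p-values was not used.

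Dividing by the value of 1 read gave whole reads for 100% of values (relative tolerance 0.001). The reads carry no molecular identifiers. The comparison used limma version 3.58.1 in R 4.3.3 on log2(CPM + 1), two-sided and with a mean-variance trend, Benjamini-Hochberg adjusted over 18001 genes and called under 0.05. Alternatives were edgeR (version 4.0.16) and DESeq2 (version 1.42.0) on the recovered reads, a pseudocount of 0.1, a filter that dropped the lowest 25% of genes by mean CPM, other scalings, no trend, a replicate block and libraries left out. edgeR called 3786 genes. The fits were tested on simulated data with changes larger than those of the members. Recovery of changes of the members' size was not tested. Log2 fold changes on this scale understate changes of low genes.

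Members and lists were chosen with earlier results of these data known, and 1 item of a list is not reported here. All members, Aldoa and the relatives were named, as were, per list, up to 4 called genes with groups that do not overlap and the largest changes, the 5 genes most like Rbm8a and the member most like each member. Coordinates and transcript sequences come from the GENCODE annotation of GRCm38, and windows of 50 bases were compared by exact match. Exon length was the union of exons of basic protein-coding transcripts.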

Additional observations from a re-analysis of the deposited data

How the results depend on the processing

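Rbm8a, Eif4a3 and Smg1 kept their direction in all 19 alternatives and were called in 16 of them each, and Magohb kept its direction in 19 and was called in 5. Without the mean-variance trend limma called 1440 genes (616 lower, 824 higher) in place of 3676 (1809 lower, 1867 higher) and 0 members, 0 lower and 0 higher. At an unadjusted p-value under 0.05 that fit had 3 members lower and 1 higher, and edgeR called 4 members and DESeq2 3. DESeq2 called 2183 genes (1117 lower, 1066 higher). With 1 library or 1 replicate number left out, 1014 to 2813 genes were called (520 to 1371 lower, 494 to 1464 higher) and 0 to 4 members (0 to 3 lower, 0 to 1 higher). The lowest count of genes was that without replicate 3 of both groups, and the 0 members were those without replicate 1 of both groups, where limma gave 4 members lower and 1 higher at an unadjusted p-value under 0.05. Leaving out replicate 2 gave 1320 genes. These settings leave 2 libraries in a group, so fewer samples enter the test.

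The log2 fold change changed sign, without a call, for Casc3 (-0.0173 to 0.0805), Upf1 (-0.0349 to 0.0697) and Upf3a (-0.00213 to 0.0924) with libraries left out. The cause was not tested. Scaling by DESeq2 size factors gave 1807 genes lower and 1869 higher, and TMM scaling equalled the deposited one.

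With the replicate number as a block limma called 3170 genes, of which 3151 were also called without it, and the same counts of 2 members lower and 1 higher. Libraries with the same number deviated from their group means with correlations of 0.034, 0.021 and 0.162 for replicates 1, 2 and 3 over 9387 genes. Other combinations lay between -0.114 and 0.094, the highest for siCtrl replicate 2 with siAldoa replicate 1, and not every library correlated best with its own number. The numbers were not treated as pairs, since the correlation was above 0.1 for replicate 3 alone. The step at which spike-in RNA was added set replicate 1 apart, and reads set replicate 3 apart in both groups, so a shared handling of same-numbered libraries was not tested further. Averaging replicates 1 and 2 of a group, an alternative chosen after seeing the data, called 3089 genes and 4 members. The counts of the 4 pathway lists were the same with edgeR and with the block.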
